A study of Homo sapiens with 12 samples.

Results

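Tumours of human liver cancer cells that had received both CS2164 and radiation were compared with vehicle tumours, across every protein-coding gene of the deposited table. The members were the 3 libraries labelled as the combination, written CS2164_IR, and the 3 control libraries, 6 of the 12 in the series, taken by group label alone. The other 6 libraries, 3 of CS2164 alone and 3 of radiation alone (IR), served for the shared estimate of the spread and as side-by-side values. Of 19988 genes, 13521 had enough reads to be tested, and 2803 had no read in any library.

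All tumours grew subcutaneously in BALB/c nude mice aged 6 weeks at purchase, hosts that lack a thymus and mature T cells but keep myeloid cells, vessels and fibroblasts of mouse origin. Treatment started at a mean tumour volume of 150 to 200 mm3. CS2164_IR mice were given 10 mg/kg of CS2164 by gavage each day and 2 Gy on each of 10 weekdays. Control mice were given the co-solvent. CS2164 mice had the compound without radiation, and IR mice had the radiation course. Per the labels, every mouse was anaesthetised with sodium pentobarbital before radiation. The time of tumour collection was not given. The cell line label reads Huh-7 for all 12 samples. The titles name Huh-7 cells for control, Huh-8 for CS2164, Huh-9 for IR and Huh-10 for CS2164_IR, and the labels do not settle which holds. The labels do not say whether each library is a separate mouse, so p-values measure the spread between these libraries.

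CS2164, or chiauranib, is an oral inhibitor of Aurora B, a kinase that attaches chromosomes to the spindle and drives the end of cell division, and of receptor kinases that act in vessels and stroma: the VEGF receptors, PDGFRA, KIT and CSF1R. Radiation breaks DNA, which calls up checkpoint, repair and p53 responses and, later, matrix and wound-like programmes. Huh-7 is an established hepatocellular carcinoma line that still makes plasma proteins such as albumin and alpha-fetoprotein, and it carries mutant p53.

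The 6 libraries held 12886607 to 16890346 counts over protein-coding genes, so that 3 counts, the limit that a count of 0 allows, came to 0.178 to 0.233 CPM. Levels below are in CPM, the count scaled to library size, changes are on the log2 scale as CS2164_IR minus control with their standard error, and n = 3 libraries in each group. Among these 6, mean Spearman correlations to the other 2 libraries of the group were lowest for control replicate 2 (0.979) and CS2164_IR replicate 1 (0.986). The lowest of the whole series was CS2164 replicate 1 (0.973). Mitochondrially encoded genes took 7.00 to 8.92% of the counts in control and 7.89 to 10.6% in CS2164_IR. Human markers of endothelial, stromal, immune, skin, muscle, fat and red blood cells took 0.0232 to 0.0278% in control and 0.0334 to 0.0388% in CS2164_IR. Hepatocyte identity was present: ALB was at 20584, 23802 and 19985 CPM in control and 25345, 14413 and 17604 in CS2164_IR, and AFP was at 18173, 21797 and 16075 and 19511, 13874 and 16463, with overlapping groups for both.

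After both treatments 20 genes were higher (0.148% of those tested) and 6 were lower (0.0444%), 26 in all or 0.192%, by edgeR's quasi-likelihood test at an adjusted p under 0.05. The largest rises were TPPP3, which binds microtubules, TNFRSF25, a death receptor of the TNF family, and SLC4A3, an anion exchanger, and the smallest p-values those of DUSP4, a MAP kinase phosphatase, ACTN3, an actin cross-linker, and MICAL1, an actin-oxidising enzyme. The falls were in enzymes (GPAM, AKR1B10, DDC, CD38), a GTPase-activating protein (ARHGAP19) and an actin-bundling protein (LCP1). Library levels of the 2 groups did not overlap for any of the 26, but that was also so for 26.4% of all tested genes, 13.0% higher and 13.3% lower. An unadjusted p under 0.05 was reached by 2218 genes (16.4%). Changes over all genes were centred at 0.0007, with quartiles of -0.20 and 0.24. In bulk tumour RNA, fewer cells of a type and less RNA per cell cannot be told apart.

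**Figure D1:**
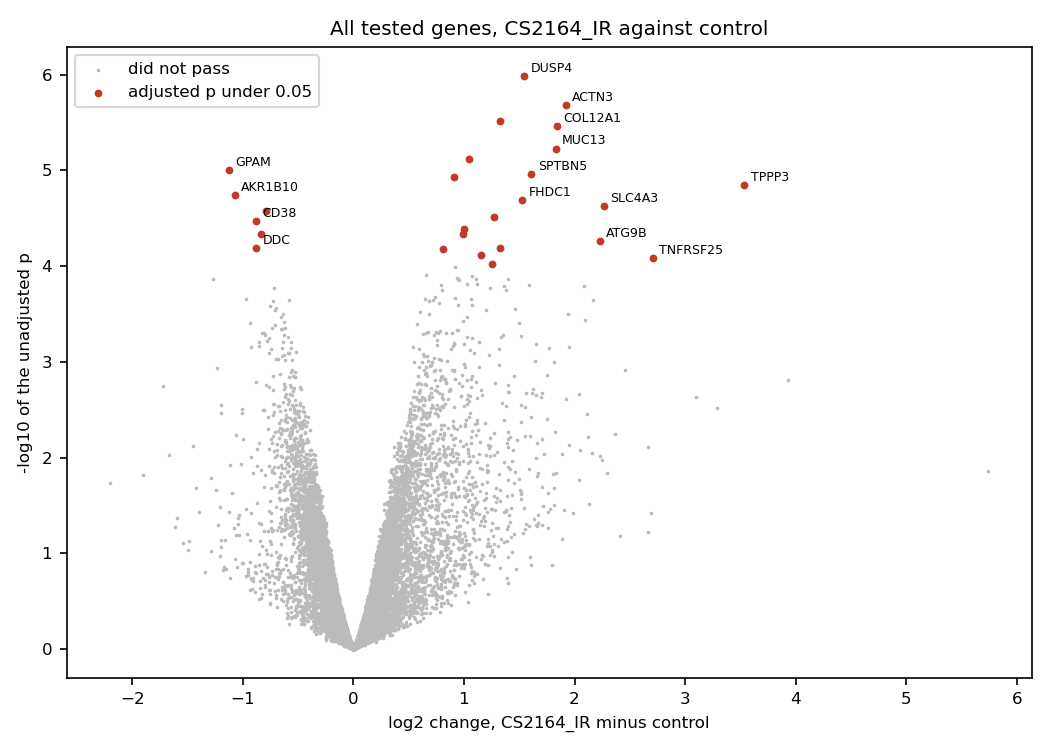
Each point is 1 of the 13521 tested genes; the horizontal axis is the log2 change of CS2164_IR minus control and the vertical axis is -log10 of the unadjusted p. The 26 genes past the threshold are red, 20 to the right and 6 to the left, and the largest changes with a named point are TPPP3 (3.54) and GPAM (-1.13).

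The number of calls rested on single libraries. By edgeR it was 0 without control replicate 2 (1532 at an unadjusted p under 0.05, adjusted p of the 26 genes 0.0706 to 0.201) and 0 without control replicate 3 (2085, and 0.0534 to 0.163), with 9 left without control replicate 1. Without CS2164_IR replicate 1, 2 or 3 it was 9, 31 and 10, and without IR replicate 2 it was 14. Leaving out CS2164 replicate 1, which belongs to neither group, raised it to 436 (3.18% of the genes tested then), with 242 higher (1.77%) and 194 lower (1.42%), and the 26 were all among them. Of the 20 rising genes, CS2164_IR replicate 1 was the highest library of its group for 13, and control replicate 2 the lowest of its group for 11. The direction was kept in each of the 24 alternative settings for the 26 genes, except that TNFRSF25 was not among the genes tested with a mean CPM of at least 1. DESeq2 called 318 genes (2.45%), 213 higher (1.64%) and 105 lower (0.808%). With trends over GC content and length removed, 315 were called (2.33%), 103 higher (0.763%) and 212 lower (1.57%). A fit of the 6 compared libraries alone called 13 (0.0985%), and limma voom 19 (0.141%). Over 13501 genes the change followed GC content, with a Spearman rho of 0.481, and not length (rho -0.0119), a description over genes that share the same 6 libraries.

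**Figure D2:**
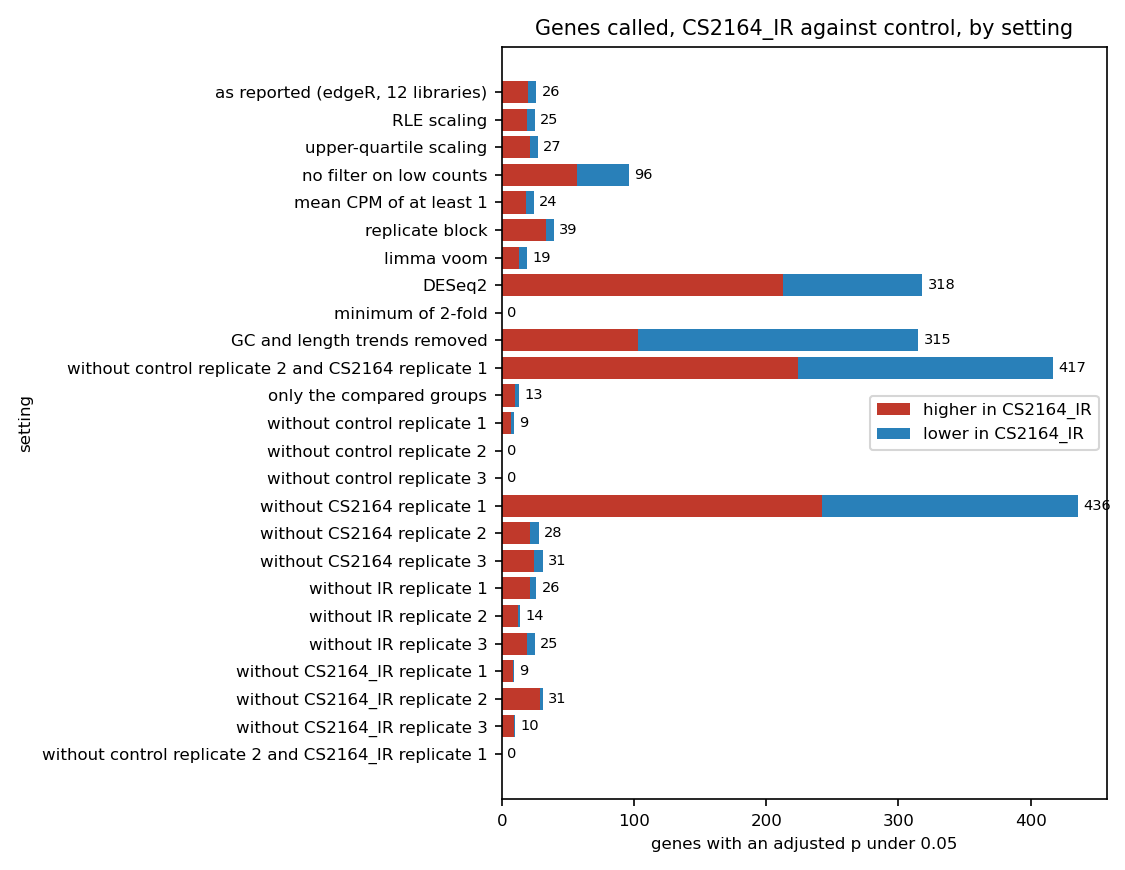
Bars give the number of genes with an adjusted p under 0.05 between CS2164_IR and control in each setting, split into higher (red) and lower (blue). The count was 26 as reported, 0 without control replicate 2 or 3, and 318, 315 and 436 with DESeq2, with GC and length trends removed, and without CS2164 replicate 1.

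The rising genes are described by what they encode, a grouping made after they were called and with no test; of the lists, those of the matrix and the cytoskeleton held COL12A1 (1 of 39) and ACTN3 and FLNC (2 of 42). These 3 and 4 others act in the matrix or on actin, microtubules or the membrane skeleton. COL12A1 (ENSG00000111799, chromosome 6, 75084326 to 75206051 of GRCh38), a collagen that decorates the surface of collagen fibrils, was at 4.05, 3.39 and 3.54 CPM in control and 19.0, 9.68 and 10.9 CPM in CS2164_IR. The groups were well apart, with replicate 1 of CS2164_IR the highest, and the change was 1.84 ± 0.28 (adjusted p 0.0116). ACTN3 (chromosome 11, 66546395 to 66563329), an actin cross-linker known from fast muscle fibres, was at 2.48, 2.70 and 2.42 CPM in control and 12.6, 8.87 and 7.59 CPM in CS2164_IR. Its control libraries lay close together and all CS2164_IR libraries stood above them, for a change of 1.92 ± 0.28 (adjusted p 0.0116). MICAL1, a monooxygenase that oxidises actin and takes filaments apart, went from 27.8, 19.4 and 21.0 CPM to 61.6, 48.7 and 60.9 CPM. That was a change of 1.33 ± 0.20 (adjusted p 0.0116). However, MICAL1 overlaps ZBTB24, and as the strand setting of the counts was not given, reads of overlapping genes may be mixed. SPTBN5, a large beta spectrin of the membrane skeleton, was at 14.7, 8.04 and 15.7 CPM in control and 54.1, 29.7 and 33.6 CPM in CS2164_IR, with control replicate 2 low. It changed by 1.61 ± 0.27 (adjusted p 0.0177) and overlaps JMJD7-PLA2G4B. FHDC1, a formin-type protein that acts on actin and microtubules, was at 2.70, 2.07 and 3.54 CPM and then 10.8, 6.01 and 7.34 CPM, without overlap, a change of 1.53 ± 0.27 (adjusted p 0.0229). FLNC, a filamin that links actin filaments into networks, was at 35.4, 18.3 and 34.8 CPM in control, where replicate 2 was the lowest, and 53.4, 84.9 and 71.9 CPM in CS2164_IR. With a change of 1.25 ± 0.25 it stood nearest to the threshold (adjusted p 0.0495). TPPP3 (chromosome 16, 67389809 to 67393535), of a family that binds and bundles microtubules, had the largest change of the 26. It was at 0.994, 0.188 and 0.373 CPM in control, where replicate 2 was at the level of 3 counts, and 8.36, 2.98 and 6.65 CPM in CS2164_IR, a change of 3.54 ± 0.60 (adjusted p 0.0193). Of these 7 genes 4, 0 and 0 passed without control replicate 1, 2 and 3 in turn, and 3, 6 and 4 without CS2164_IR replicate 1, 2 and 3. Without any 1 of the 3 IR libraries or without CS2164 replicate 2, 6 passed, and in the fit of the 6 compared libraries 4 passed and with limma voom 5.

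**Figure D3:**
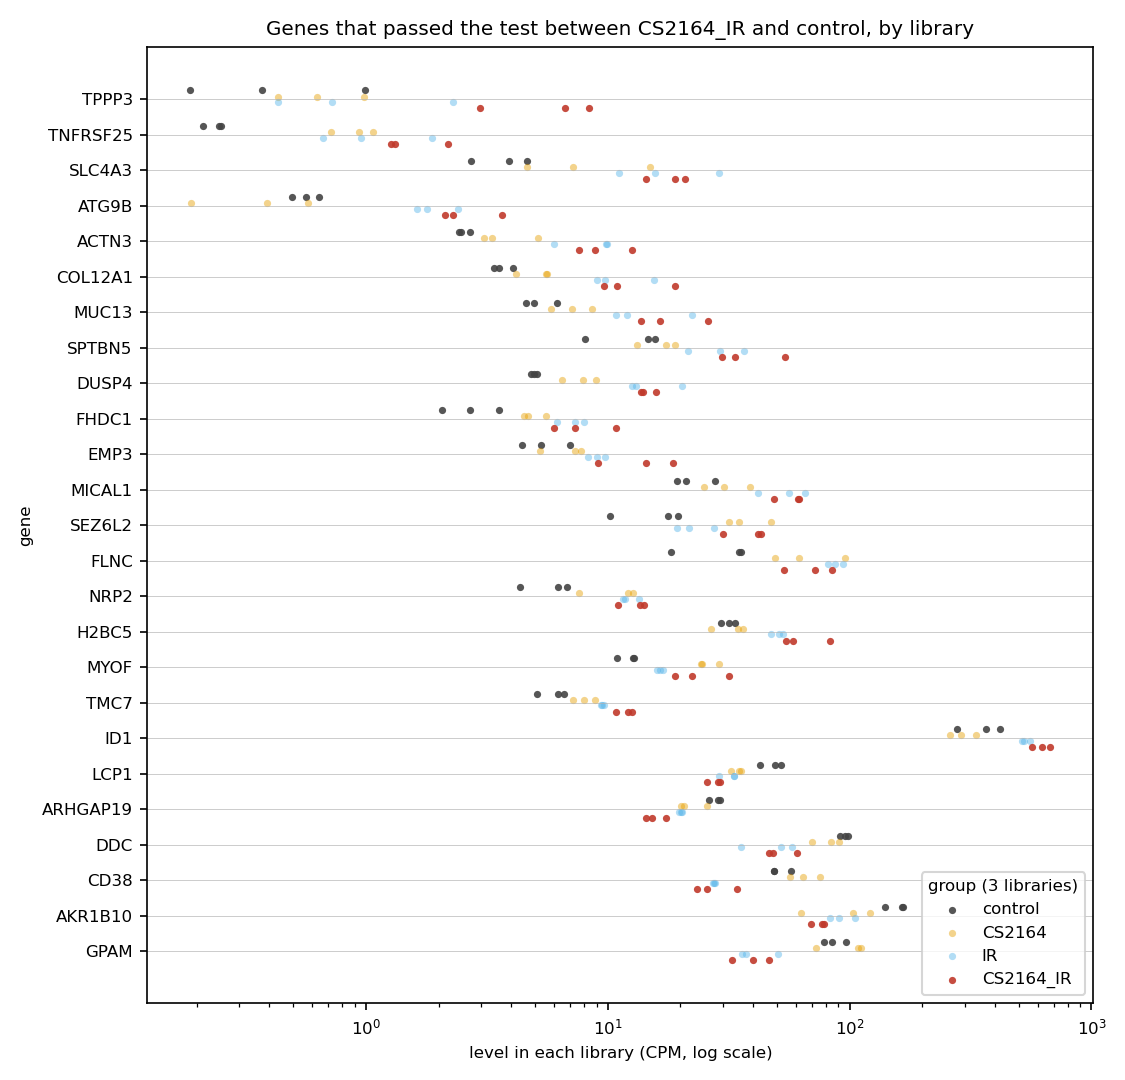
Each point is 1 library, with the level in CPM on a log axis, for 25 of the 26 genes that passed between CS2164_IR (red) and control (dark grey); CS2164 alone (yellow) and IR alone (light blue) are shown beside them. Red and dark grey points do not overlap for any gene shown, for example 7.59 to 12.6 against 2.42 to 2.70 CPM for ACTN3.

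At the cell surface 7 genes rose. MUC13 (ENSG00000173702, chromosome 3, 124905442 to 124953819), a transmembrane mucin of epithelia, was at 4.97, 6.16 and 4.60 CPM in control and 26.0, 13.8 and 16.4 CPM in CS2164_IR. Replicate 1 of CS2164_IR was the highest and no libraries overlapped, with a change of 1.83 ± 0.29 (adjusted p 0.0160). NRP2 (chromosome 2, 205681990 to 205798133), a co-receptor for semaphorins and for VEGF-C, was at 6.81, 4.34 and 6.21 CPM in control and 14.1, 11.0 and 13.6 CPM in CS2164_IR. It was the one angiogenesis gene on the list to pass, with a change of 1.16 ± 0.23 (adjusted p 0.0431). SLC4A3, a chloride and bicarbonate exchanger, was at 3.90, 4.65 and 2.73 CPM and 14.4, 19.0 and 21.0 CPM, a change of 2.27 ± 0.39 (adjusted p 0.0248). EMP3, a tetraspan membrane protein, was at 5.32, 6.97 and 4.41 CPM and 14.4, 9.10 and 18.6 CPM, and changed by 1.33 ± 0.26 (adjusted p 0.0390). SEZ6L2, a membrane protein known from neurons, was at 17.8, 10.2 and 19.5 CPM and 42.9, 30.1 and 41.9 CPM, and changed by 1.27 ± 0.23 (adjusted p 0.0277). Replicate 2 was the lowest library of its group for SEZ6L2 in both groups. MYOF, a ferlin that takes part in membrane fusion and repair, was at 12.8, 10.9 and 12.7 CPM and 18.9, 22.2 and 31.8 CPM, a change of 1.00 ± 0.19 (adjusted p 0.0326). TMC7, of the transmembrane channel-like family, was at 6.60, 5.09 and 6.21 CPM and 12.7, 12.2 and 10.9 CPM, a change of 1.00 ± 0.19 (adjusted p 0.0328). Of these 7, none passed without any 1 control library (adjusted p at least 0.0586, 0.0761 and 0.0534 without replicate 1, 2 and 3), and 2, 6 and 1 passed without CS2164_IR replicate 1, 2 and 3. Without IR replicate 1, 2 or 3 it was 5, 3 and 5, with limma voom 4, and in the fit of the 6 compared libraries 2.

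Of the rises, 5 were in genes of signalling, autophagy or the nucleus. DUSP4, a nuclear phosphatase that switches off MAP kinases and is itself induced by them, was at 5.11, 4.84 and 4.97 CPM in control and 15.8, 13.7 and 14.1 CPM in CS2164_IR. Both groups were tight, and the change of 1.55 ± 0.21 had the smallest unadjusted p of the 26 (1.03e-06, adjusted p 0.0116). ID1 (chromosome 20, 31605283 to 31606515), which blocks DNA binding of basic helix-loop-helix factors and is a classical target of BMP signalling, was at 366, 420.2 and 277 CPM in control and 567, 676 and 627 CPM in CS2164_IR, a change of 0.81 ± 0.16 (adjusted p 0.0390). TNFRSF25, a death-domain receptor of the TNF receptor superfamily, was near the level of 3 counts in control (0.213, 0.251 and 0.249 CPM) and at 1.27, 1.32 and 2.20 CPM in CS2164_IR. Its change of 2.71 ± 0.54 (adjusted p 0.0445) rests on few reads, and the gene overlaps ESPN and PLEKHG5. ATG9B (chromosome 7, 151012209 to 151024499), a membrane protein of autophagosome formation, was at 0.639, 0.565 and 0.497 CPM in control and 3.66, 2.29 and 2.13 CPM in CS2164_IR, a change of 2.23 ± 0.43 (adjusted p 0.0372). ATG9B overlaps NOS3 at its end, and the strand setting of the counts was not given. H2BC5, a histone H2B gene, was at 29.4, 33.7 and 31.6 CPM in control and 83.0, 58.4 and 54.4 CPM in CS2164_IR, where replicate 1 was the highest. It changed by 1.05 ± 0.17 (adjusted p 0.0173), and its coding sequence has near copies among the other H2B genes. Without control replicate 1, 2 and 3 in turn 1, 0 and 0 of these 5 passed, and without CS2164_IR replicate 1, 2 and 3 it was 1, 2 and 2. Without IR replicate 1, 2 or 3 it was 3, 2 and 3, without CS2164 replicate 2 or 3 it was 3 and 4, and it was 1 in the fit of the 6 compared libraries and 3 with limma voom.

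DUSP4 and FOSL1 belong to the MAP kinase and AP-1 response, and the promoters of the called genes were searched for the AP-1 motif and 4 other common motifs. RefSeq promoters (GRCh38.p14) could be matched for 15 of the 20 higher and 5 of the 6 lower genes, and the 250 bases before the start were searched on both strands. DUSP4 was not among the 15 and FOSL1 was not called, so neither is in the counts of called genes below. TGANTCA, the AP-1 motif, was in 2 of the 15 (MUC13 and ATG9B) and in none of the 5, and in 432 of 10946 promoters of tested genes (3.95%). TGACGTCA, the cAMP response element, was in MUC13, in none of the 5 and in 2.77% of promoters. CCAAT was in 3 of the 15, 2 of the 5 and 35.0% of promoters, GGGCGG in 8 of the 15, 3 of the 5 and 65.2%, and CACGTG in 1 of the 15, none of the 5 and 8.73%; none of these motifs contains another. The promoters with an AP-1 match are printed because both genes rose, 5′ to 3′ on the minus strand, with the matches in capitals.
MUC13 (chr3:124934752-124935001): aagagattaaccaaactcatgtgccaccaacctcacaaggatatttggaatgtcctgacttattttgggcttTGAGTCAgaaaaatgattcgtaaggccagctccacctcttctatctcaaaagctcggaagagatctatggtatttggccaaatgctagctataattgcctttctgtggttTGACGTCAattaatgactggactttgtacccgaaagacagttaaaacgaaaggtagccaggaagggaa
ATG9B (chr7:151024500-151024749): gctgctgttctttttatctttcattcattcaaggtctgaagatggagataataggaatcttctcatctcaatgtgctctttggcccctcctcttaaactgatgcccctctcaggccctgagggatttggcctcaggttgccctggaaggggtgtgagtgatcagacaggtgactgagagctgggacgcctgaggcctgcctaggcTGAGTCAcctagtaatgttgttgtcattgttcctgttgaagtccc
In MUC13 the AP-1 letters TGAGTCA began 178 bases before the RefSeq start and TGACGTCA began 68 bases before it, and in ATG9B TGAGTCA began 45 bases before the start. The RefSeq start of MUC13 lies inside the longer GENCODE interval given above. A match describes the letters only, and no factor binding was measured.

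Of the 6 genes that fell, 4 encode enzymes. GPAM (ENSG00000119927, chromosome 10, 112149864 to 112215377), the mitochondrial acyltransferase that starts glycerolipid and triglyceride synthesis, was at 78.2, 84.3 and 96.6 CPM in control and 46.5, 32.6 and 39.8 CPM in CS2164_IR. No CS2164_IR library reached a control library, and the change was -1.13 ± 0.19 (adjusted p 0.0177). AKR1B10 (chromosome 7, 134527592 to 134541408), an aldo-keto reductase that is an NRF2 target and a marker of hepatocellular carcinoma, was at 140.2, 167 and 165 CPM in control and 69.2, 78.7 and 76.8 CPM in CS2164_IR. It changed by -1.07 ± 0.19 (adjusted p 0.0223, and 0.0503 with GC and length trends removed), and reads may be shared with its near copy AKR1B15. CD38 (chromosome 4, 15778275 to 15853230), a surface enzyme that consumes NAD, was at 48.6, 48.6 and 57.0 CPM and 23.5, 25.8 and 34.4 CPM, a change of -0.88 ± 0.16 (adjusted p 0.0286). DDC, the decarboxylase that makes dopamine and serotonin, was at 91.2, 96.2 and 98.7 CPM in control and 60.9, 46.6 and 48.3 CPM in CS2164_IR, where replicate 1 was the highest. Its change was -0.88 ± 0.17 (adjusted p 0.0390), and it overlaps FIGNL1. ARHGAP19, a GTPase-activating protein that acts in cell division, was at 29.2, 28.7 and 26.2 CPM and 14.4, 17.5 and 15.3 CPM, a change of -0.83 ± 0.16 (adjusted p 0.0328). LCP1, or L-plastin, which bundles actin, was at 52.2, 49.1 and 42.7 CPM and 28.7, 29.0 and 25.8 CPM, and both groups were narrow. It had the smallest change of the 6, -0.79 ± 0.14 (adjusted p 0.0256). Without control replicate 1, 2 and 3 in turn 2, 0 and 0 of the 6 passed, and without CS2164_IR replicate 1, 2 and 3 it was 1, 2 and 1. Without IR replicate 1 or 2 it was 5 and 2, and in the fit of the 6 compared libraries it was 3.

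How these levels stood beside the single treatments was read from the same fit, whose comparisons share the control or the CS2164_IR libraries, so the values are set side by side and not counted as separate evidence. Against control, COL12A1 changed by 0.48 ± 0.29 with CS2164 alone, 1.64 ± 0.28 with IR alone and 1.84 ± 0.28 with both. MUC13 had 0.46 ± 0.30, 1.52 ± 0.29 and 1.83 ± 0.29 in the same order, and ATG9B had -0.56 ± 0.52, 1.77 ± 0.43 and 2.23 ± 0.43. The differences of CS2164_IR from IR for the 3 genes were 0.20 ± 0.26, 0.31 ± 0.27 and 0.46 ± 0.37, and none of them passed. DUSP4 stood at 0.65 ± 0.22, 1.63 ± 0.21 and 1.55 ± 0.21, GPAM at 0.18 ± 0.18, -1.07 ± 0.19 and -1.13 ± 0.19, and CD38 at 0.35 ± 0.16, -0.90 ± 0.16 and -0.88 ± 0.16. TPPP3 had its largest value with both, 3.54 ± 0.60 against 0.43 ± 0.70 and 1.18 ± 0.66, and EMP3 stood at 0.28 ± 0.26, 0.69 ± 0.26 and 1.33 ± 0.26. MYOF and SEZ6L2 were nearer to CS2164 alone: MYOF had 1.09 ± 0.19, 0.44 ± 0.19 and 1.00 ± 0.19, and SEZ6L2 1.26 ± 0.23, 0.53 ± 0.23 and 1.27 ± 0.23. FLNC had 1.22 ± 0.25, 1.57 ± 0.25 and 1.25 ± 0.25.

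**Figure D4:**
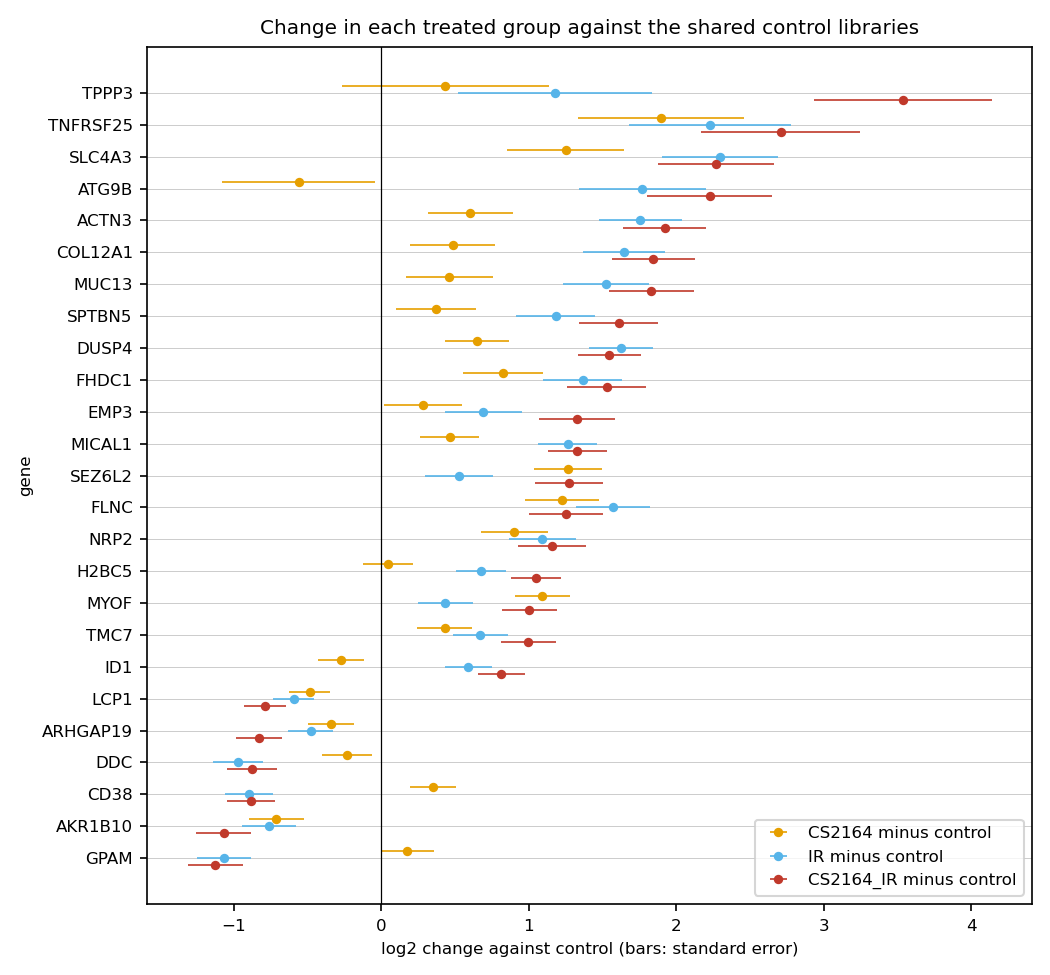
Points give the log2 change against the shared control libraries with CS2164 alone (yellow), IR alone (blue) and both (red) for 25 of the 26 genes, and bars give the standard error. Red and blue points lie close for COL12A1 (1.84 and 1.64) and GPAM (-1.13 and -1.07), while TPPP3 stands apart with both (3.54 against 1.18).

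Tested directly, CS2164_IR and IR tumours differed in no gene at an adjusted p under 0.05, by edgeR, limma voom or DESeq2, and 331 genes (2.45%) had an unadjusted p under 0.05 by edgeR. Of the 26 genes, TPPP3 had the largest difference from IR, 2.36 ± 0.54 (unadjusted p 0.000373, adjusted p 1.00), with 2.28, 0.723 and 0.432 CPM in IR. SEZ6L2 (0.75 ± 0.23, unadjusted p 0.00411), EMP3 (0.64 ± 0.25, 0.0202) and MYOF (0.57 ± 0.18, 0.00630) also stood above IR without passing. Without CS2164_IR replicate 2, SERPINC1, which encodes antithrombin, passed with 1.32 ± 0.19 (adjusted p 0.0305), and with all libraries it had 0.99 ± 0.27 (adjusted p 1.00) from 47.3, 64.2 and 44.6 CPM in IR and 155, 50.2 and 105 CPM in CS2164_IR. SERPINC1 is named because it was the one call. An interaction of the treatments, tested by edgeR only, passed for 0 genes, with 2732 (20.2%) at an unadjusted p under 0.05.

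Against CS2164 alone, CS2164_IR differed in 1310 genes (9.69%), 511 higher (3.78%) and 799 lower (5.91%), and 27.9% of genes had an unadjusted p under 0.05. With upper-quartile scaling the split turned over, with 750 higher and 614 lower of 1364, and the median over all genes was 0.10 against 0.04 as reported. GPAM, at 72.9, 109 and 111 CPM with CS2164 alone, had a difference of -1.30 ± 0.19 (adjusted p 0.00171), and CD38 had -1.23 ± 0.16 (adjusted p 0.00171). ID1 was higher by 1.09 ± 0.16 (adjusted p 0.00171), ATG9B by 2.79 ± 0.45 (0.00261), and H2BC5 by 1.00 ± 0.17 (0.00308). MUC13, ACTN3 and COL12A1 were higher by 1.37 ± 0.28, 1.32 ± 0.27 and 1.36 ± 0.27 (adjusted p 0.00881, 0.00859 and 0.00804). LRP1 (-1.27 ± 0.21, adjusted p 0.00308) and LRP5 (-0.87 ± 0.21, 0.0179), receptors of the LDL receptor family, and RXRA (-0.81 ± 0.14, 0.00366), a nuclear receptor partner, were lower than with CS2164 alone and did not pass against control. FLNC, MYOF and SEZ6L2 differed from CS2164 alone by 0.03 ± 0.24, -0.09 ± 0.18 and 0.01 ± 0.22 and did not pass. The count of 1310 was 355, 854 and 310 without CS2164_IR replicate 1, 2 and 3 in turn. Without CS2164 replicate 1, 2 and 3 it was 1703, 841 and 848, and without control replicate 2 it was 2049.

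Gene lists were then read by how many tested members passed, beside 0.148% higher and 0.0444% lower over all genes, and by their median change, beside 0.0007. Of 36 lists with a tested member, 7 had a median that no single left-out library turned or moved by over 1.5 times: mitosis, Aurora, AP-1, matrix proteases, angiogenesis, unfolded protein and fibroblast markers. Genes of mitosis, which build the spindle and part the chromosomes, had the lowest median. None of 50 passed (29 had an unadjusted p under 0.05 and DESeq2 called 6), the median was -0.42, 46 were below 0 (50.1% of all genes were above it), and for 36 the CS2164_IR libraries all lay under the control libraries, beside 13.3% of all genes. STMN1, which destabilises microtubules, was at 319.6, 495 and 318 CPM in control and 301, 303 and 308 CPM in CS2164_IR, with overlap (-0.31 ± 0.21, adjusted p 0.471). TOP2A, the topoisomerase that untangles mitotic chromosomes, was at 255, 254 and 285 CPM and 174, 223 and 185 CPM, without overlap (-0.45 ± 0.20, adjusted p 0.282). DLGAP5, a spindle protein with the lowest value on the list, was at 56.6, 72.1 and 59.0 CPM and 30.9, 36.9 and 34.2 CPM (-0.88 ± 0.24, adjusted p 0.108), and KIF18B the highest at 0.23 ± 0.18. Without control replicate 2 or CS2164_IR replicate 1 the median stood at -0.41 and -0.38, and with GC and length trends removed at -0.35. Against the same control libraries the mitosis median was -0.55 with CS2164 alone and -0.24 with IR alone. Summed levels of that list overlapped between CS2164 alone (2520.5, 3683.6 and 3620.5 CPM, replicate 1 lowest) and CS2164_IR (3199.5, 3877.9 and 3202.6 CPM). Of 11 Aurora and chromosomal passenger genes, the partners of a CS2164 target, none passed (6 at an unadjusted p under 0.05, 2 by DESeq2). Their median was -0.32, and 6 were separated below control and none above, beside 13.3 and 13.0% of all genes. AURKB itself was at 77.3, 77.2 and 72.6 CPM in control and 73.5, 65.8 and 59.7 CPM in CS2164_IR, with overlap (-0.19 ± 0.13, adjusted p 0.478). TPX2, which activates Aurora A, was at 235, 269.9 and 277 CPM and 169, 209 and 164 CPM (-0.53 ± 0.16, 0.131), and RCC2, of the same list, had 0.08 ± 0.15 (0.821).

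Medians of the replication, repair and damage response lists lay near the middle of all genes, and none of their members passed. Medians were -0.10 for 50 genes of replication and G1/S, -0.10 for 44 of homologous recombination and the Fanconi pathway, 0.00 for 21 of end joining, -0.11 for 39 of excision and mismatch repair, and -0.10 for 29 of damage sensing and checkpoint. In the same order 5, 2, 4, 8 and 2 of them had an unadjusted p under 0.05 by edgeR, beside 16.4% of all genes, and DESeq2 called 2 replication genes and none of the others. Separated above control were 1, 5, 2, 2 and 1 in that order, and below it 11, 2, 3, 10 and 5, beside 13.0 and 13.3% of all genes. With any 1 library left out the medians of these 5 lists lay between -0.20 and 0.02. PCNA, the sliding clamp of replication, was at 292, 369 and 272 CPM in control and 270.4, 283 and 250.3 CPM in CS2164_IR (-0.22 ± 0.14, adjusted p 0.446). XRCC5 and XRCC6, the Ku subunits that bind broken ends, had -0.31 ± 0.15 and -0.31 ± 0.13 (adjusted p 0.306 and 0.262). H2AX, the histone that is phosphorylated at breaks, had -0.19 ± 0.13 (0.481). The 31 p53 targets had a median of 0.05 and the 26 cell death regulators -0.02, with 7 and 1 at an unadjusted p under 0.05 and 2 and 0 called by DESeq2. With 1 library left out these medians ranged from -0.01 to 0.13 and from -0.10 to 0.02, so neither kept its sign. CDKN1A, the p53-induced inhibitor of cyclin-dependent kinases, was at 26.2, 17.4 and 17.6 CPM in control and 24.0, 20.2 and 24.6 CPM in CS2164_IR, with overlap (0.17 ± 0.18, 0.655). MDM2 was at 52.0, 49.4 and 46.5 CPM and 43.2, 47.9 and 40.3 CPM (-0.17 ± 0.17, 0.632). BCL2L1, which restrains apoptosis, had 0.19 ± 0.12 and MCL1, of the same family, -0.26 ± 0.13 (adjusted p 0.452 and 0.319). The levels of these transcripts do not measure damage or its repair.

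Medians of the matrix lists sat above the middle. Of 39 collagen, laminin and matrix genes 1 passed (COL12A1; 15 at an unadjusted p under 0.05, 5 by DESeq2), the median was 0.47, and 17 were separated above control and none below, beside 13.0 and 13.3% of all genes. LAMA3, a laminin chain of epithelial basement membranes, was at 37.1, 14.9 and 38.3 CPM and 111, 37.8 and 53.5 CPM with overlap (1.16 ± 0.40, 0.200). Summed over all 50 listed genes, levels overlapped: 15915, 11295 and 14955 CPM in control and 15302, 15571 and 15877 CPM in CS2164_IR. The median of the list was 0.27 with GC and length trends removed and 0.29 without control replicate 2. Against the same control libraries it was 0.57 with CS2164 alone and 0.33 with IR alone. Of 14 markers of fibroblasts and pericytes 8 were tested and none passed (4 at an unadjusted p under 0.05, 2 by DESeq2). Their median was 0.52, or 0.22 with GC and length trends removed, 3 of the 8 were below 0, the lowest being RGS5 at -0.36 ± 0.33 (0.597), and their summed level was 71.7 to 85.2 CPM in control and 116 to 131 CPM in CS2164_IR. COL1A2 was at 20.8, 26.6 and 17.3 CPM and 42.2, 47.3 and 45.9 CPM, without overlap (1.06 ± 0.29, 0.111), and MCAM at 25.6, 18.8 and 23.8 and 38.7, 40.2 and 29.4 CPM (0.67 ± 0.17, 0.0856), while THY1, FAP and POSTN had 0 counts in all 6 libraries. Stromal cells in these tumours are of mouse, the handling of mouse reads is not stated in the sources used, and the part of stromal RNA in the matrix values was not tested.

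Of 24 proteases and inhibitors of the matrix none passed by edgeR (8 at an unadjusted p under 0.05, 3 by DESeq2). The median was 0.31, or 0.14 with GC and length trends removed. Above control 6 were separated and none below, beside 13.0 and 13.3% of all genes. TIMP1, an inhibitor of metalloproteinases, was the highest: 9.30, 11.5 and 7.95 CPM in control and 24.7, 16.4 and 26.7 CPM in CS2164_IR (1.23 ± 0.26, adjusted p 0.0533). Of 36 integrins, cadherins and junction genes none passed (7 at an unadjusted p under 0.05, 1 by DESeq2, median 0.20, or 0.11 without control replicate 2 and 0.11 without CS2164_IR replicate 1), with ITGB1 at -0.09 ± 0.14, and CDH17, an intestinal-type cadherin, ranging from 4.54, 5.22 and 11.6 CPM to 40.1, 10.9 and 19.3 CPM with overlap (1.71 ± 0.62, 0.229). Of 42 cytoskeleton genes 2 rose, ACTN3 and FLNC (10 at an unadjusted p under 0.05, 5 by DESeq2), and the median was 0.21, or 0.05 with GC and length trends removed and 0.09 without control replicate 2.

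Of 36 AP-1 factors and MAP kinase phosphatases DUSP4 alone passed by edgeR (9 at an unadjusted p under 0.05, 3 by DESeq2). The median was 0.28, or 0.17 with GC and length trends removed. Above control 8 were separated and none below, beside 13.0 and 13.3% of all genes. FOSL1, an AP-1 subunit, was at 0.497, 0.314 and 0.311 CPM in control and 1.59, 1.60 and 1.88 CPM in CS2164_IR, without overlap. Its change of 2.17 ± 0.47 did not pass (adjusted p 0.0573), and its value with IR alone was 3.16 ± 0.46 (adjusted p 0.00614). DUSP5 and DUSP6, other MAP kinase phosphatases, had 0.60 ± 0.21 and 0.25 ± 0.15 (adjusted p 0.177 and 0.416).

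**Figure D5:**
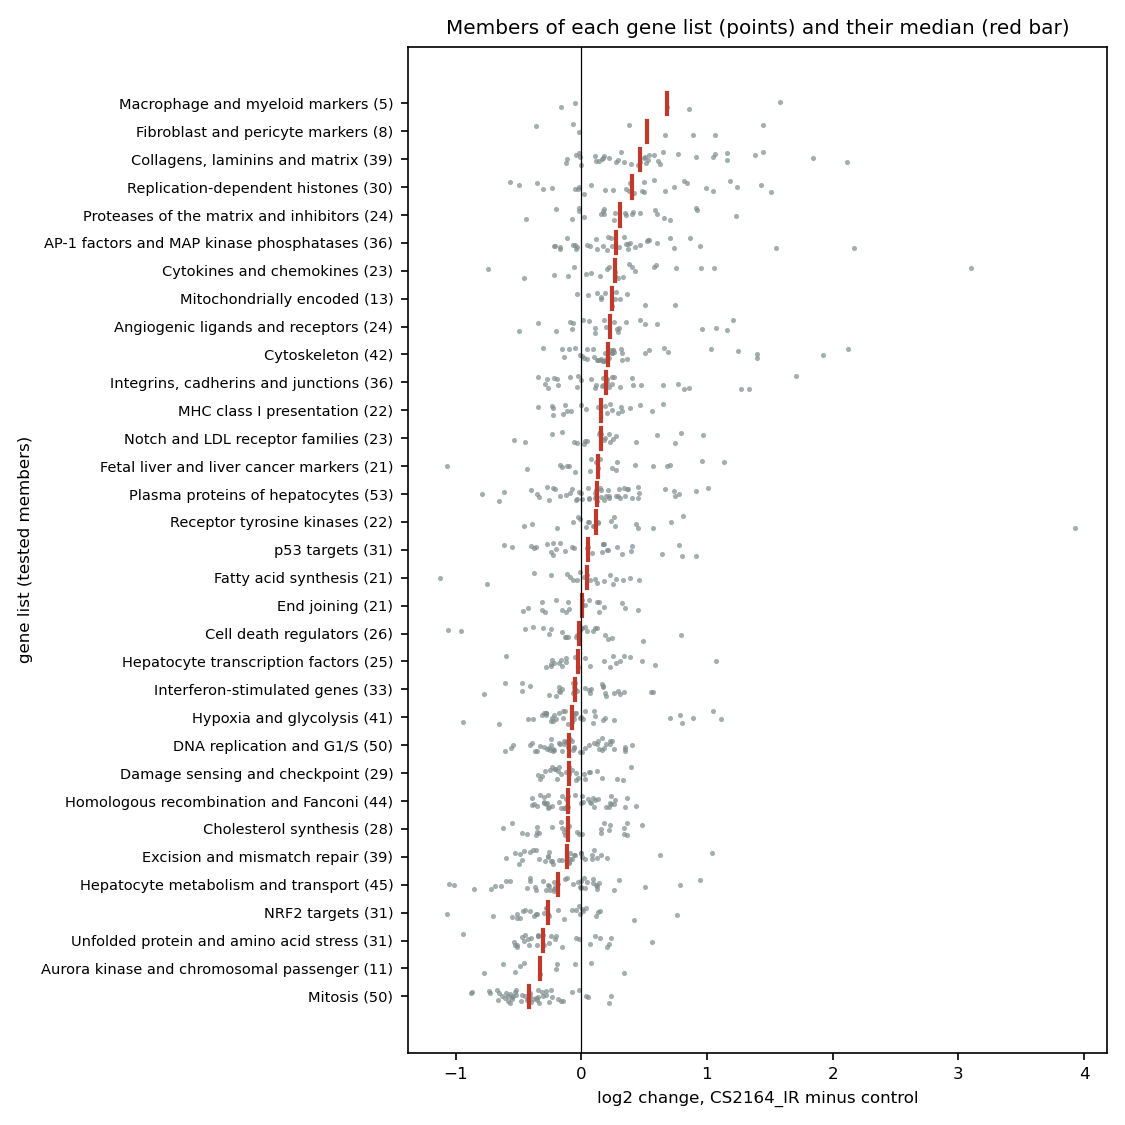
Each point is the log2 change of CS2164_IR minus control of 1 tested gene, grouped by list with the number tested in brackets, and the red bar is the list's median; lists are ordered by median. Mitosis lies lowest (-0.42) and the matrix list (0.47) and the small fibroblast (0.52) and macrophage (0.68) marker lists lie highest.

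Angiogenesis genes bear on the receptor targets of CS2164. Of 24 angiogenic ligands and receptors 1 rose, NRP2 (7 at an unadjusted p under 0.05, 1 by DESeq2), and the median was 0.23, or 0.06 with GC and length trends removed. Of 22 receptor tyrosine kinases none passed (6 at an unadjusted p under 0.05, 1 by DESeq2, median 0.12), and the median was 0.04 without control replicate 2 and -0.03 with GC and length trends removed. FGFR3 and FGFR4 had 0.23 ± 0.18 and -0.07 ± 0.16 (adjusted p 0.527 and 0.861). EPHB2, the highest of that list, had 0, 0 and 0.124 CPM in control, under the 3-count level, and 1.51, 0.286 and 0.628 CPM in CS2164_IR (adjusted p 0.105). PDGFRA, a target of CS2164, was at 10.5, 8.73 and 9.88 CPM in control and 18.4, 12.3 and 13.7 CPM in CS2164_IR, without overlap (0.60 ± 0.21, 0.188). The VEGF receptor genes FLT1 and KDR stood at 0 counts in all 6 libraries, a limit of 0.178 to 0.233 CPM. FLT4 had 2 counts in CS2164_IR replicate 3 and 0 in the others, KIT at most 1 and CSF1R at most 5 in any of the 6. These are counts of human genes, while vessels and stroma in these tumours are of mouse. Receptor levels in those mouse cells were not measured. Of 14 endothelial markers 4 were tested and none passed (none at an unadjusted p under 0.05 or by DESeq2). The summed levels of the list were 69.4 to 126 CPM in control and 89.6 to 139 CPM in CS2164_IR. Most of that was EGFL7 (0.29 ± 0.31, adjusted p 0.661), which other cells also express. Of the 4 tested, 2 were above 0 and 2 below, from PECAM1 at -0.40 to ENG at 0.38. EMCN, ERG and ROBO4 had 0 counts in all 6 libraries.

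Immune and stress lists gave few calls. None of 23 cytokines, 33 interferon-stimulated genes or 22 genes of MHC class I presentation passed (medians 0.27, -0.05 and 0.16), with 6, 2 and 2 at an unadjusted p under 0.05 and 0 called by DESeq2 in each list. The cytokine median was 0.50 without control replicate 2 and 0.13 without control replicate 3. The interferon median turned to 0.03, 0.03 and 0.03 without control replicate 2, control replicate 3 and CS2164_IR replicate 2, and the MHC median was 0.10, 0.10 and 0.07 without control replicate 1, control replicate 2 and CS2164_IR replicate 3. With GC and length trends removed the MHC median was 0.0064. MDK, a heparin-binding growth factor, was at 635, 785 and 501 CPM in control and 1097, 744 and 742 CPM in CS2164_IR (0.43 ± 0.18, adjusted p 0.267). IFIT1 was the lowest interferon gene, at 10.8, 11.8 and 12.0 CPM and 6.13, 5.55 and 8.54 CPM (-0.77 ± 0.23, 0.135). Of 17 macrophage and myeloid markers 5 were tested and none passed (2 at an unadjusted p under 0.05, 0 by DESeq2, median 0.68, or 0.44 without CS2164_IR replicate 1), with summed levels of 39.0 to 49.3 CPM in control and 46.8 to 85.4 CPM in CS2164_IR. Most of that was LYZ, at 36.6, 33.2 and 44.7 CPM and 80.9, 39.7 and 63.8 CPM (0.68 ± 0.24, 0.181), while CD68, CD163 and C1QA had 0 counts. Of 12 lymphoid markers 2 were tested, CD3D at 1.03 ± 0.30 (adjusted p 0.126) and CD8A at -0.94 ± 0.77 (0.553), and DESeq2 called 1 of them. Of 14 skin, muscle and fat markers 4 were tested and none passed (1 at an unadjusted p under 0.05, 0 by DESeq2), with a median of -0.21, or -0.51 without CS2164_IR replicate 1 and -0.02 without replicate 2. No erythroid marker of 8 was tested. The 31 genes of the unfolded protein and amino acid stress responses had a median of -0.30, none passing (12 at an unadjusted p under 0.05, 2 by DESeq2). Below control 13 were separated and none above, beside 13.3 and 13.0% of all genes. HSPA5, the main chaperone of the endoplasmic reticulum, was at 1269.6, 1845 and 1305 CPM and 864, 1146 and 1094 CPM, without overlap (-0.51 ± 0.17, 0.171), and HSP90B1 had -0.42 ± 0.19 (0.281). Of 31 NRF2 targets AKR1B10 alone fell by edgeR (9 at an unadjusted p under 0.05, 3 by DESeq2), and the median was -0.26, or -0.12 without control replicate 2 and -0.14 without CS2164_IR replicate 1. None of 41 hypoxia and glycolysis genes passed (2 at an unadjusted p under 0.05, 1 by DESeq2), with a median of -0.07, which was 0.17 without CS2164_IR replicate 1, 0.06 without control replicate 2 and -0.31 without CS2164_IR replicate 3, and ENO1, enolase, was at 1459, 2799 and 3106 CPM in CS2164_IR, with replicate 1 low (-0.22 ± 0.28, 0.717).

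Liver genes included some of the most abundant transcripts. The 53 plasma proteins had a median of 0.13, which turned to -0.08 without CS2164_IR replicate 1 and was 0.29 without replicate 2, with ORM1, an acute-phase protein, at -0.79 ± 0.22 (0.110) and APOA4 at 1.01 ± 0.31 (0.144). None of 45 genes of hepatocyte metabolism and transport passed (7 at an unadjusted p under 0.05, 1 by DESeq2, median -0.18, or -0.29 and -0.10 without CS2164_IR replicate 1 and 2). ALDH1A1, a retinaldehyde dehydrogenase, was at 1229, 1585 and 1225 CPM in control and 1056, 979 and 1013 CPM in CS2164_IR, without overlap (-0.41 ± 0.17, adjusted p 0.240), and GLUL, glutamine synthetase, had -0.28 ± 0.13 (0.291). None of 25 hepatocyte transcription factors passed (3 at an unadjusted p under 0.05, 1 by DESeq2, median -0.03, from -0.08 to 0.03 with 1 library left out). With GC and length trends removed their median was -0.18 and 3 passed. NR0B2, a repressor of bile acid synthesis, was at 27.0, 26.6 and 21.7 CPM and 74.9, 37.0 and 46.6 CPM (1.07 ± 0.26, 0.0748). NR1H4, the bile acid receptor, was at 49.5, 73.8 and 64.6 CPM and 47.1, 33.0 and 44.1 CPM (-0.60 ± 0.20, 0.169). Of 21 fetal liver and liver cancer markers AKR1B10 fell (6 at an unadjusted p under 0.05, 3 by DESeq2, median 0.13, or 0.21 without control replicate 2), ALB and AFP had -0.17 ± 0.22 and -0.17 ± 0.23 (both adjusted p 0.728), and SPINK1, a trypsin inhibitor, had 1.14 ± 0.27 (0.0782). Of 21 fatty acid synthesis genes GPAM fell (5 at an unadjusted p under 0.05, 2 by DESeq2, median 0.05, or -0.05 without control replicate 2), and of 28 cholesterol synthesis genes none passed (9 at an unadjusted p under 0.05, 0 by DESeq2, median -0.11, or -0.05 without control replicate 2), with HMGCS1 at -0.23 ± 0.14 (0.415). Of 23 genes of the Notch and LDL receptor families none passed (4 at an unadjusted p under 0.05, 2 by DESeq2, median 0.15, or 0.04 without control replicate 2 and -0.04 with GC and length trends removed), with JAG2, a Notch ligand, at 0.97 ± 0.27 (0.118).

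Of 30 replication-dependent histone genes H2BC5 rose (12 at an unadjusted p under 0.05, 2 by DESeq2). Of the 30, 12 were separated above control and 1 below, beside 13.0 and 13.3% of all genes. The histone median was 0.40, or 0.24 without CS2164_IR replicate 1. These transcripts mostly lack a poly-A tail, and the libraries were made by poly-A selection, so their counts hold the tailed fraction. The 13 mitochondrially encoded genes had a median of 0.25 with none passing (2 at an unadjusted p under 0.05, 1 by DESeq2), and 0.05, 0.39 and 0.16 without CS2164_IR replicate 1, CS2164_IR replicate 2 and control replicate 1. MT-CO1, a subunit of cytochrome c oxidase, was at 24741, 27118 and 33488 CPM in control and 39729, 28633 and 34653 CPM in CS2164_IR, with overlap (0.27 ± 0.19, 0.469).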

How the data were processed

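Poly-A RNA of xenograft tumours was sequenced in 12 libraries. Per the submitters' processing notes, the authors used HISAT2 2.1.0, HTSeq 0.9.1 and GRCh38; annotation release, strand setting and handling of mouse reads were not given in the sources used here. Whole read counts and FPKM per gene were deposited by the authors. The deposited counts were used in every test, and the authors' FPKM only for gene length. Genes passing filterByExpr were scaled by TMM and fitted with edgeR 4.0.16 (R 4.3.3; quasi-likelihood, robust) over all 12 libraries with 1 coefficient per group, with Benjamini-Hochberg adjustment over all tested genes at 0.05. Standard errors come from the log2 change and its F statistic. CPM are after TMM scaling. Limma 3.58.1 (voom), DESeq2 1.42.0, 2 other scalings, 2 filters, a replicate block, GC and length trends (spline with 4 degrees of freedom) and leaving out each library were alternatives. The procedure was tested on simulated data.

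Symbols came from a gene name table, positions from GENCODE v29 (GRCh38) and promoters from RefSeq. Genes were named by these rules: the 10 largest rises and falls among called genes without overlap of libraries and with a higher-group mean of 1 CPM or more, the 5 called genes with the highest mean CPM in each direction, per list up to 3 called genes or else the 2 with the highest mean CPM, and 14 genes looked up by name. The rule gave 82 genes, a few of which are not reported here, and other genes, such as MYOF, EMP3, TMC7, SEZ6L2, and the extremes of a list, were named after their values were seen. Overlapping means sharing bases with another gene of at least 10 mean counts. The genes and the 37 lists were chosen with earlier results of these data known.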

Additional observations from a re-analysis of the deposited data

How the results depend on the processing

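The count of 26 genes between CS2164_IR and control stayed within 1.5 times with RLE scaling (25), upper-quartile scaling (27), a mean CPM of at least 1 (24), limma voom (19) and the replicate number as a block (39). It was 96 without a filter on low counts (57 higher and 39 lower), 318 with DESeq2 (213 and 105), 315 with GC and length trends removed (103 and 212), 417 without control replicate 2 and CS2164 replicate 1 (224 and 193), 13 with only the compared groups, and 0 with a minimum of 2-fold, by edgeR's glmTreat. Without control replicate 2 and CS2164_IR replicate 1, an alternative chosen after seeing the data, it was 0. Leaving out 1 library at a time gave 0 to 436. For the replicate block, deviations from the group mean of same-numbered control and CS2164_IR libraries correlated at 0.0760, 0.0383 and -0.145, so the numbers were not taken to pair the libraries. CS2164_IR against IR had 0 calls in every setting except without CS2164_IR replicate 2, for a range of 0 to 1. The 1310 calls against CS2164 became 2538 with GC and length trends removed, 3265 without control replicate 2 and CS2164 replicate 1, 834 with only the compared groups and 0 with a minimum of 2-fold, and ranged from 310 to 2049 with 1 library left out. The cause of these shifts was not tested, apart from the fold minimum, which asks for more than a difference from 0.

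Changes of sign were seen only in genes that had not passed. With GC and length trends removed they were RCC2 (-0.071), RAD23B (0.095), ADAM9 (0.092), FGFR3 (-0.048), PARP9 (0.033), CALR (-0.078), GAPDH (-0.13), LRP5 (-0.041), AFP (0.051), CDKN1A (-0.028) and ALB (0.032). DDB1 had 0.0064 with upper-quartile scaling and 0.0037 with a mean CPM of at least 1, and GAPDH -0.017 without a filter and -0.034 with limma voom. With 1 library or either named pair of libraries left out, values ranged from -0.0933 to 0.14 for ADAM9, -0.42 to 0.0002 for ALB, -0.0057 to 0.10 for CALR, -0.74 to 0.43 for CCL20, -0.11 to 0.0319 for CDC25B, -0.0547 to 0.0365 for DDB1, -0.42 to 0.26 for ENO1, -0.19 to 0.0049 for FGFR4, -0.12 to 0.23 for GAPDH, -0.54 to 0.69 for GDF15, -0.16 to 0.039 for MCM7, -0.19 to 0.0433 for PARP9, -0.0673 to 0.20 for RCC2 and -0.85 to 0.22 for S100A9.

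Each call rests on 3 libraries a group, with adjusted p of 0.0116 to 0.0495. Genes at a few reads, such as TNFRSF25 in control, are limited by counting error as well.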

Other observations

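Beyond the 26 genes, 132 more of the 13521 tested passed in the same direction in each of the fits listed next. The fit reported above did not call them, and 58 were higher and 74 lower. The fits were DESeq2 (2.45% of its genes called), GC and length trends removed (2.33%), and without CS2164 replicate 1 (3.18%). This set of 132 was chosen after the values were seen, its fits use the same libraries, and it carries no test of its own. Those named here have levels without overlap between CS2164_IR and control. Among the higher genes, AREG, a ligand of the EGF receptor, was at 0.710, 0.628 and 0.497 CPM in control and 2.63, 2.06 and 1.63 CPM in CS2164_IR (1.77 ± 0.43, adjusted p 0.0800 in the reported fit). JAG1, a Notch ligand, was at 76.9, 58.5 and 79.2 CPM and 130.0, 146 and 96.2 CPM (0.80 ± 0.17, 0.0533). ID3, of the same family as ID1, was at 137, 150.5 and 101 CPM and 202, 235 and 186 CPM (0.68 ± 0.15, 0.0574). KLF5, a zinc-finger factor of epithelia, was at 14.8, 15.7 and 14.1 CPM and 34.7, 27.2 and 24.9 CPM (0.96 ± 0.20, 0.0533). TUBB3, a tubulin known from neurons, was at 3.97, 2.14 and 3.85 CPM and 9.31, 6.18 and 10.7 CPM (1.39 ± 0.29, 0.0533).

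Of the lower genes, ANGPTL8, a secreted regulator of lipoprotein lipase, was at 2.91, 4.34 and 2.11 CPM in control and 0.876, 0.458 and 1.51 CPM in CS2164_IR (-1.72 ± 0.47, adjusted p 0.111). ACSL4, an acyl-CoA synthetase, was at 237, 279.6 and 269.7 CPM and 159, 158 and 151 CPM (-0.75 ± 0.18, 0.0800). NQO1, a quinone reductase and NRF2 target, was at 503, 719 and 554 CPM and 291, 419 and 383 CPM (-0.70 ± 0.18, 0.0891). Ribonucleotide reductase, which makes the building blocks of DNA, was lower in both subunits, with RRM1 at 76.6, 89.9 and 85.7 CPM and 53.3, 66.4 and 53.1 CPM (-0.54 ± 0.14, 0.102). RRM2 was at 164, 149.9 and 162 CPM and 108, 119.9 and 95.5 CPM (-0.56 ± 0.14, 0.0891). Genes of cell division in the set included CCNB1 (-0.53 ± 0.14, 0.103), BIRC5 (-0.62 ± 0.16, 0.0891), KIF4A (-0.58 ± 0.15, 0.0839) and DLGAP5 (-0.88 ± 0.24, 0.108).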
